A study of Mus musculus with 6 samples.

Results

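The S100 calcium-binding proteins were followed in CD31-sorted cells of the mouse mammary gland, with and without a fibroblast deletion of the transcription factor Ets2. Of 10 named members, 9 (S100a1, S100a3, S100a4, S100a6, S100a8, S100a9, S100a10, S100a13 and S100a16) had a probe set that the platform annotation ties to a single gene, out of 18193 genes represented in this way. S100a11 had none, because its probe set is also listed for a predicted gene and for an S100a11 pseudogene. The family was selected on earlier results of the same arrays, the differences between deleted and control, and each such difference is given here as a description and not as a test.

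RNA was measured on 6 arrays, 1 per sample, from FVB/N mice aged 9 weeks. The 3 deleted animals had the genotype PyMT;Fsp-cre;Ets2db/loxP and the 3 control animals PyMT;Ets2db/loxP. Animals of both groups therefore carried the polyoma middle T oncogene (PyMT), which drives mammary tumors from the epithelium, as well as 1 floxed Ets2 allele and 1 Ets2db allele, a conventional allele that lacks DNA-binding function. The groups differed in Fsp-cre, a Cre recombinase driven by the promoter of Fsp1, which is an older name of S100a4. The promoter thus belongs to a member of the family, other cells that use it could also have recombined, and no array of Fsp-cre alone was analysed here. For the control samples 1 label denies an oncogene while 3 others, the genotype among them, list PyMT. They were grouped here by genotype.

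S100 proteins are small EF-hand proteins that mostly form dimers, open a hydrophobic face when they bind calcium, and then dock onto target proteins. Inside cells they act on the cytoskeleton, annexins and membrane repair. Several are also released and act on receptors such as RAGE and TLR4, for which the S100A8 and S100A9 pair (calprotectin), abundant in neutrophils and monocytes, is best known. In endothelial cells the S100A10 and annexin A2 complex binds plasminogen activators at the cell surface. All 10 named members lie on mouse chromosome 3, and most of them sit in 1 tight cluster.

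The stretches upstream of 4 of these genes are shown as background, and no difference between the groups was set against them. S100a4 lends its promoter to the Cre driver, S100a3 ends 1063 bases before S100a4 begins, and S100a8 and S100a9 encode partners of a single complex. Each line gives the 250 bases before a RefSeq start in GRCm38.p6, 5′ to 3′ on the gene's strand, and the letters TATAAA are in capitals where they begin within 50 bases of the start. RefSeq lists 4 starts for S100a3, and the line shows the last of them, 3556 bases before the start of S100a4.
S100a3, chr3:90599964-90600213, plus strand: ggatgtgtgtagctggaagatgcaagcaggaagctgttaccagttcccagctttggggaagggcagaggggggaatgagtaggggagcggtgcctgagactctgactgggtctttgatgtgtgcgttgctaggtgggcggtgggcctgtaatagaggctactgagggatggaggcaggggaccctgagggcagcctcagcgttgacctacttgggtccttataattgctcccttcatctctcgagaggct
S100a4, chr3:90603520-90603769, plus strand: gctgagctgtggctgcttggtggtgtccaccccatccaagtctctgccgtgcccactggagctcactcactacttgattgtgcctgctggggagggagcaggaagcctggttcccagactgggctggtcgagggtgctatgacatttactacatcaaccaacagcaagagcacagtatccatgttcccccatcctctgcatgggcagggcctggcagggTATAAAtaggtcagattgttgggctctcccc
S100a8, chr3:90668821-90669070, plus strand: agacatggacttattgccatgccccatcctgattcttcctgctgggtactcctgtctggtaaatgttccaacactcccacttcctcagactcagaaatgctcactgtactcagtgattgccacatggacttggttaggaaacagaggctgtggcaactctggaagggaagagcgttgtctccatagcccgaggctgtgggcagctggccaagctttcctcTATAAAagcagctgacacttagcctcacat
S100a9, chr3:90695722-90695971, minus strand: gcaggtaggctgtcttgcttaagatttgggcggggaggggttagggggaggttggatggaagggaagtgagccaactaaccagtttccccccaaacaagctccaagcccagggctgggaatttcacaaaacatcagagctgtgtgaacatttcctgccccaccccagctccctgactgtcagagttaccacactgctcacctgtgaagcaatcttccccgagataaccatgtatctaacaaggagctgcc
The letters TATAAA, searched on both strands within 50 bases before the start, were found for S100a4, 31 bases before its start, and for S100a8, 30 bases before it. They were found in 2 of 13 promoters of the 9 members that had a promoter entry, and in 3.5% of all 32851 RefSeq promoters searched. None of the 4 starts of S100a3 had them in that window, though before the third start they begin just outside it. A match describes letters in a window and no activity of a factor.

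The deposited signals were log2 values that ran between 2.31 and 14.9, with array medians of 7.02 to 7.07. The third control array stood apart, at 70.2 on the first principal component (42.0% of the variance) against -37.1 to 35.8 on the other 5 arrays, and it had the widest gap between the 3′ and 5′ probes of Gapdh, 1.31 against 0.75 to 1.01 on the others. Ets2 itself, by its brightest probe set, read 14.43, 14.30 and 14.50 in deleted arrays and 14.48, 14.41 and 14.26 in control arrays, which overlap. The deletion was directed at fibroblasts and these are CD31-sorted cells, so this is no check of it. All 12 endothelial markers lay above the median signal, and so did all 11 measured epithelial markers. No probe set on the array passed an adjusted p of 0.05 with limma (0% of 45037, smallest 0.9999), and 934 or 2.07% had an unadjusted p under 0.05. The 95% interval of a difference extended to a median of 0.45 on either side.

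S100a3, a zinc- and calcium-binding member best known from the hair cuticle, had the largest difference of the family and was higher in every deleted array. Its only probe set (1421856_at) read 5.30, 4.97 and 5.19 in deleted arrays and 3.71, 4.21 and 4.37 in control arrays. The lowest deleted value lay above the highest control value, and the groups did not overlap. The means were 5.16 ± 0.16 in deleted and 4.10 ± 0.34 in control arrays (SD, n = 3 each), a log2 difference of 1.06 (SE 0.20, 95% interval 0.58 to 1.54) or 2.08-fold. Of the 18193 genes, 6.07% were free of overlap in either direction and 3.36% in the upward one.

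S100a3 was also the dimmest member. The mean signal of S100a3 fell at percentile 13.9 of all represented genes, and it was the only 1 of the 9 members below the median signal of 7.04. No detection call accompanies the deposited values, so whether its transcript was above background in either group cannot be read from them. S100a3 was the only member past the thresholds of the study, a fold over 2 with an unadjusted p under 0.05, here the p of limma. Of all genes, 17 or 0.0934% passed them in either direction and 0.0165% upward. The study's own list of changed genes in these cells does not name S100a3. Its lists for cultured normal mammary fibroblasts do name the same probe set, as higher on Ets2 deletion at both ages studied. Those are other cells and other arrays. In the sorted cells the difference of S100a3 was 0.87 without the first control array and 1.19 without the third. Without the first deleted array it was 0.99, short of the fold threshold.

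S100a4, whose promoter drove the Cre, encodes a partner of nonmuscle myosin that is widely used as a fibroblast marker and is also made by macrophages and other leukocytes. Its probe set (1424542_at) read 9.74, 10.22 and 10.10 in deleted arrays and 10.23, 10.07 and 10.47 in control arrays. The second deleted value lay above the second control value, so the groups overlapped. The difference was -0.24 (SE 0.18, 95% interval -0.67 to 0.20), and it ran from -0.33 to -0.10 as single arrays were left out.

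Markers of fibroblasts, macrophages and leukocytes in general were mostly lower in deleted arrays as well. All 12 fibroblast markers were lower in deleted arrays, 5 of them without overlap, with a median difference of -0.53 and a mean level per array of 8.70 to 8.86 in deleted and 9.17 to 9.60 in control arrays. All 12 measured macrophage and monocyte markers were lower too, 6 without overlap, with a median of -0.71 and mean levels of 8.05 to 8.55 in deleted and 8.67 to 9.38 in control arrays. Of 8 pan-leukocyte markers 7 were lower, 1 without overlap, with a median of -0.46 and mean levels of 9.21 to 10.1 in deleted and 9.85 to 10.3 in control arrays, which overlap. Other lists differed in direction. Of 11 measured epithelial markers 10 were lower, with a median of -0.14, and of 12 endothelial markers 11 were higher, with a median of 0.13. Of 9 pericyte and smooth muscle markers 7 were higher, with a median of 0.10. Of 6 measured Schwann cell markers 4 were lower, with a median of -0.20. Of 6 measured adipocyte markers 3 were lower and 3 higher, with a median of -0.03. The groups overlapped for every marker of these other lists. Over all genes 49.1% were lower, and 2.7% were lower without overlap. The part of any of these cell types in the level of S100a4 was not tested. In bulk samples fewer cells of a type and less RNA per cell cannot be told apart.

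**Figure D1:**
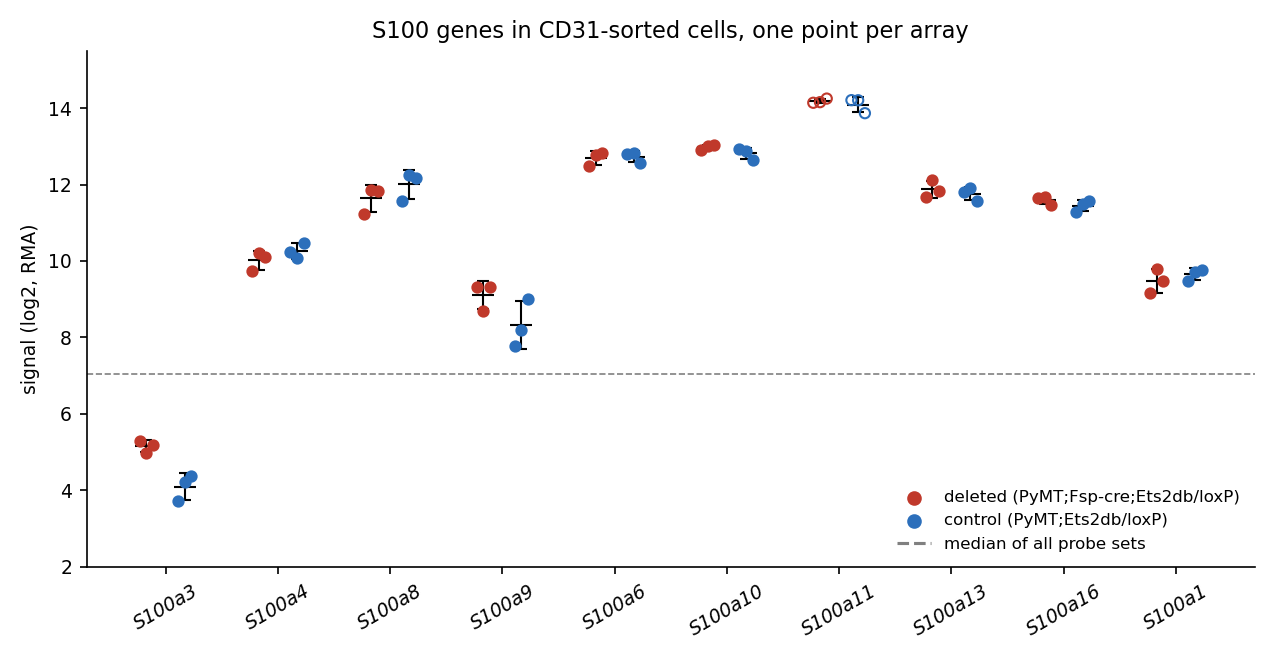
Signal (log2, RMA) of the 10 named S100 genes on each array, with deleted arrays in red and control arrays in blue. Bars give the mean ± SD of 3 arrays, the dashed line is the median of all probe sets at 7.04, and open points mark S100a11, whose probe set is shared with other loci. S100a3 is the only gene below the line and the only 1 whose groups do not overlap.

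The mean differences of the calprotectin pair had opposite signs. S100a8 (1419394_s_at) read 11.23, 11.86 and 11.82 in deleted arrays and 11.57, 12.26 and 12.18 in control arrays. The first array of each group was its lowest, and the groups overlapped. The difference was -0.37 (SE 0.25, 95% interval -0.96 to 0.23). It was -0.58 without the first control array and -0.16 without the first deleted array.

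S100a9 (1448756_at), which encodes the partner of S100a8, was higher on average in deleted arrays. It read 9.31, 8.69 and 9.32 in deleted arrays and 7.78, 8.19 and 9.01 in control arrays. The overlap came from a single pair, since only the third control array lay above the second deleted array. The difference was 0.78 (SE 0.33, 95% interval -0.01 to 1.56), a fold of 1.71 with wide error. It was 1.12 without the third control array and 0.50 without the first.

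S100a3 and S100a9 were the 2 members with an absolute difference over 0.5, which 3.33% of all genes had. The RMS distance between their profiles over the 6 arrays, after each gene was centred on its own mean, was 0.28, against 0.57 for the size of either profile. Among 11276 genes with a signal above the median, S100a9 was the second nearest to S100a3. The nearest was Rpusd2 at 0.25, and the third was Il6, an inflammatory cytokine, at 0.30. Il6 read 9.89, 9.70 and 10.24 in deleted arrays and 9.25, 9.17 and 9.36 in control arrays, without overlap. Of all genes, 3.36% were higher without overlap. A gene chosen for its likeness to S100a3 tends to separate the groups as S100a3 does, so this is no result about Il6. Among the same 11276 genes, the nearest to S100a9 were 4930428B01Rik at 0.29, Rpusd2 at 0.30 and Tmem178 at 0.31. S100a3, at 0.28, was nearer, but its signal lies below the median and it was no candidate. Rpusd2 has 6 probe sets that disagreed in sign, from -0.14 to 0.84, the highest being the brightest that represents it.

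The same genes above the median signal were searched for S100a8 and S100a4. For S100a8 the nearest of them were Rps6ka6 and Tlcd1, each at a distance of 0.06, and Gm16136 at 0.08, against a profile size of 0.35. For S100a4 they were Uckl1, Cytip and Pibf1, each at 0.05, against a size of 0.22. These distances rest on 6 arrays and describe likeness only.

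Both calprotectin genes are classical neutrophil genes, so the neutrophil markers are given beside them. Of 14 measured, 7 were lower and 7 higher in deleted arrays, none without overlap, with a median difference of -0.06. The mean level of the list was 6.13 to 6.39 in deleted and 6.26 to 6.44 in control arrays. Of these markers, 10 lay below the median signal, among them the granule genes Ngp (4.73 in deleted and 4.65 in control arrays), Elane (4.30 in deleted and 4.14 in control arrays) and Mpo (4.27 in deleted and 4.64 in control arrays). The other 4 were Ltf and Lcn2, which mammary epithelium makes as well, Prtn3 and Mmp9. Prtn3, a protease of neutrophil granules, read 6.26, 7.79 and 7.35 in deleted arrays and 6.74, 8.14 and 8.59 in control arrays, a difference of -0.69 with overlap. Il1r2, a decoy receptor for interleukin 1, was at -0.66 with overlap. Mmp9, a gelatinase stored in neutrophil granules, read 8.20, 7.41 and 7.13 in deleted arrays and 7.73, 6.75 and 6.06 in control arrays, a difference of 0.73 with overlap. Ly6g, the usual surface marker, had no probe set of its own here. The macrophage and pan-leukocyte markers, whose levels are given beside S100a4, were mostly lower in deleted arrays. The pan-leukocyte list was lowest in the first deleted array, as S100a8 was. The macrophage list was lowest in the third deleted array, where S100a8 was near its mean. The part of any of these cells in the levels of S100a8 and S100a9 was not tested.

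**Figure D2:**
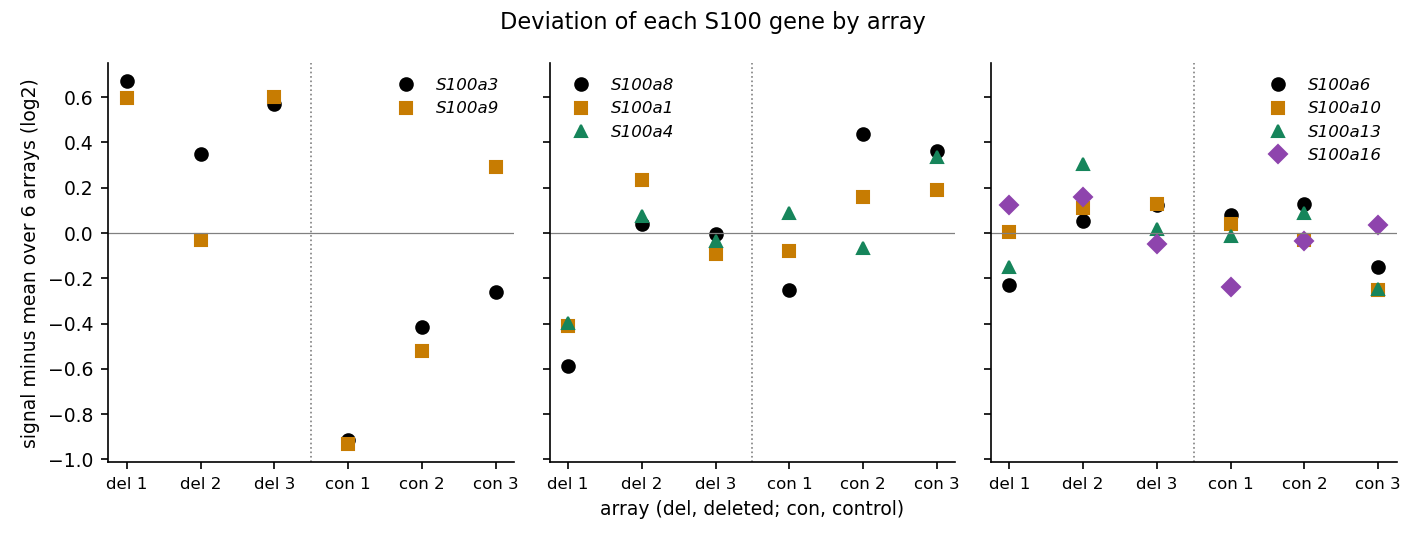
Signal of each of the 9 measured members minus its mean over the 6 arrays (log2), by array, with deleted arrays left of the dotted line and control arrays right of it. S100a3 and S100a9 were lowest in the first control array, and S100a8, S100a1 and S100a4 were lowest in the first deleted array.

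S100a10 (p11), the annexin A2 partner, read 12.90, 13.01 and 13.02 in deleted arrays and 12.94, 12.86 and 12.64 in control arrays. The groups overlapped in the first array of each, and the difference was 0.16 (SE 0.14, 95% interval -0.17 to 0.50). Its other 2 probe sets disagreed with each other, at 0.35 and at -0.47, the lower being a dim probe set that read 5.89 to 7.07 in deleted arrays and 6.34 to 7.62 in control arrays.

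S100a6 (calcyclin), a calcium sensor tied to proliferation and to the cytoskeleton, read 12.48, 12.76 and 12.83 in deleted arrays and 12.79, 12.84 and 12.56 in control arrays. Neither group was uniformly higher. The difference was -0.04 (SE 0.16, 95% interval -0.41 to 0.34).

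S100a13, which takes part in the unconventional release of FGF1 and IL1A, read 11.66, 12.12 and 11.83 in deleted arrays and 11.80, 11.90 and 11.57 in control arrays. S100a16, which is broadly expressed, read 11.64, 11.68 and 11.47 in deleted arrays and 11.28, 11.49 and 11.56 in control arrays. The groups overlapped for each gene, with differences of 0.11 (95% interval -0.30 to 0.52) for S100a13 and 0.16 (-0.18 to 0.50) for S100a16. A further S100a16 probe set read 11.60, 11.49 and 11.51 in deleted arrays and 11.38, 11.39 and 11.10 in control arrays, a difference of 0.24 without overlap, which 6.44% of all probe sets share.

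S100a1, best known as a calcium regulator of heart and skeletal muscle, read 9.15, 9.80 and 9.47 in deleted arrays and 9.49, 9.72 and 9.76 in control arrays. The deleted arrays held both its lowest and its highest value. The difference was -0.18 (95% interval -0.64 to 0.28), and its dimmer probe set gave -0.03. It was -0.34 without the second deleted array and -0.02 without the first. S100a11 could be read only through the probe set it shares, at 14.14, 14.15 and 14.25 in deleted arrays and 14.21, 14.20 and 13.87 in control arrays, a difference of 0.09.

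Counted over the 9 members, 4 were lower and 5 higher in deleted arrays, and 8 of the 9 intervals covered 0. The median difference was 0.11, against 0.00 over all genes, and the median absolute difference 0.18 against 0.11. None passed the adjusted p of 0.05 with limma, and 1 (S100a3) had an unadjusted p under 0.05, which 1.79% of all genes had. Some representing probe sets are of the kind that can also bind related transcripts, those of S100a1, S100a8, S100a10 and S100a16 among them.

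The members did not share 1 profile over the arrays. The smallest RMS distances were those among S100a6, S100a10 and S100a13, at 0.12 to 0.13, but the profiles of these genes were themselves nearly flat, with sizes of 0.14 for S100a6, 0.13 for S100a10 and 0.18 for S100a13. S100a1 and S100a4 came next at 0.15, with sizes of 0.22 for each. For S100a3 and S100a9 a larger distance of 0.28 stood against much larger profiles.

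**Figure D3:**
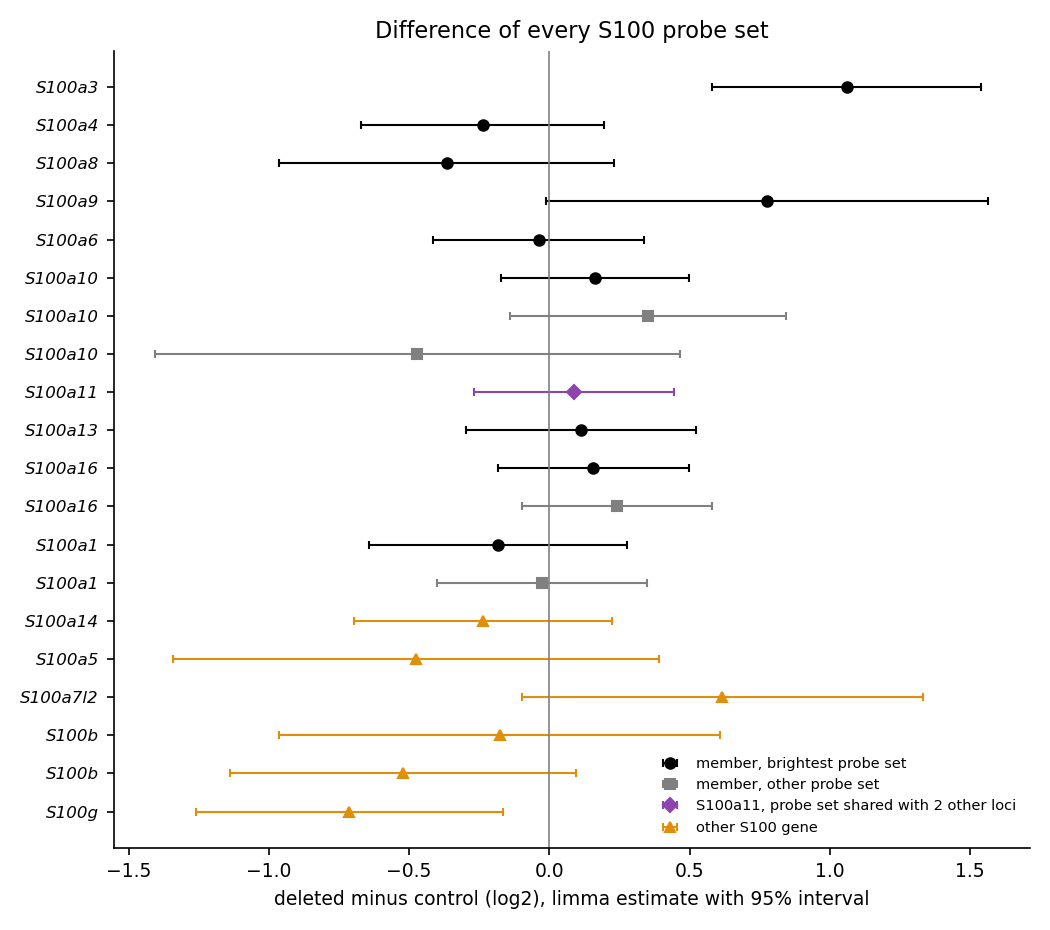
Difference of each S100 probe set, deleted minus control (log2), with its 95% interval from limma. The interval of S100a3 lies above 0 and that of S100g, a dim gene outside the named members, below it, and all others shown cover 0.

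Of 9 other S100 genes listed, 5 had a probe set of their own, and all 5 were below the median signal. Of these, 4 were lower in deleted arrays and the median difference was -0.24. S100g, the vitamin D-dependent calbindin of gut and uterus, read 6.504, 6.414 and 7.022 in deleted arrays and 7.163, 7.189 and 7.729 in control arrays, a difference of -0.71. It was the 1 of these 5 genes without overlap, and 2.7% of all genes were lower without overlap. S100a7l2 was at 0.62 and S100a5 at -0.48, each with overlap. S100b, a glial and melanocytic member, was at -0.18, and its other probe set at -0.52.

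The fused-type genes, large epidermal proteins that carry an S100 domain at the amino end, were measured for 5 of 7 and were all dim. Of these, 2 were lower and 3 higher, and none was free of overlap. The largest difference was that of Tchh at -0.78, with overlapping values of 5.09, 5.96 and 4.55 in deleted arrays and 6.72, 4.47 and 6.76 in control arrays. Hrnr and Tchhl1 followed, each at 0.14.

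Receptors for released S100 proteins had smaller differences than S100a3 and S100a9. All 9 were measured and bright, 4 were lower and 5 higher in deleted arrays, and all of their groups overlapped. Their differences lay between -0.25 and 0.26 with a median of 0.08. Ager, which encodes RAGE, had the largest at 0.26, with values of 8.44, 8.36 and 7.96 in deleted arrays and 7.89, 8.19 and 7.90 in control arrays, while its other probe set was at -0.07. Fgfr1 was at -0.25, Ly96, the co-receptor of TLR4, at 0.16, and Tlr4 itself at 0.13.

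Of 30 listed partners, proteins that S100 members bind, act on or help to release, 27 were measured, 14 of them lower and 13 higher, with a median difference of -0.01 and a range of -0.29 to 0.32. The groups did not overlap for 2 of the 27, Anxa1 and Myh10, against 6.07% of all genes, so the share is near the background. Anxa1, a phospholipid-binding partner of S100A11, read 13.207, 13.335 and 13.291 in deleted arrays and 13.067, 13.142 and 12.997 in control arrays, a difference of 0.21. Myh10, the nonmuscle myosin IIB heavy chain, was at 0.27. The largest differences were those of Padi3, an enzyme that citrullinates S100A3 in human hair, at 0.32, Plat, the tissue plasminogen activator, at 0.31, and Cacybp, the calcyclin-binding protein, at 0.29, each with overlap. Anxa2, the partner of S100a10, was at 0.13.

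**Figure D4:**
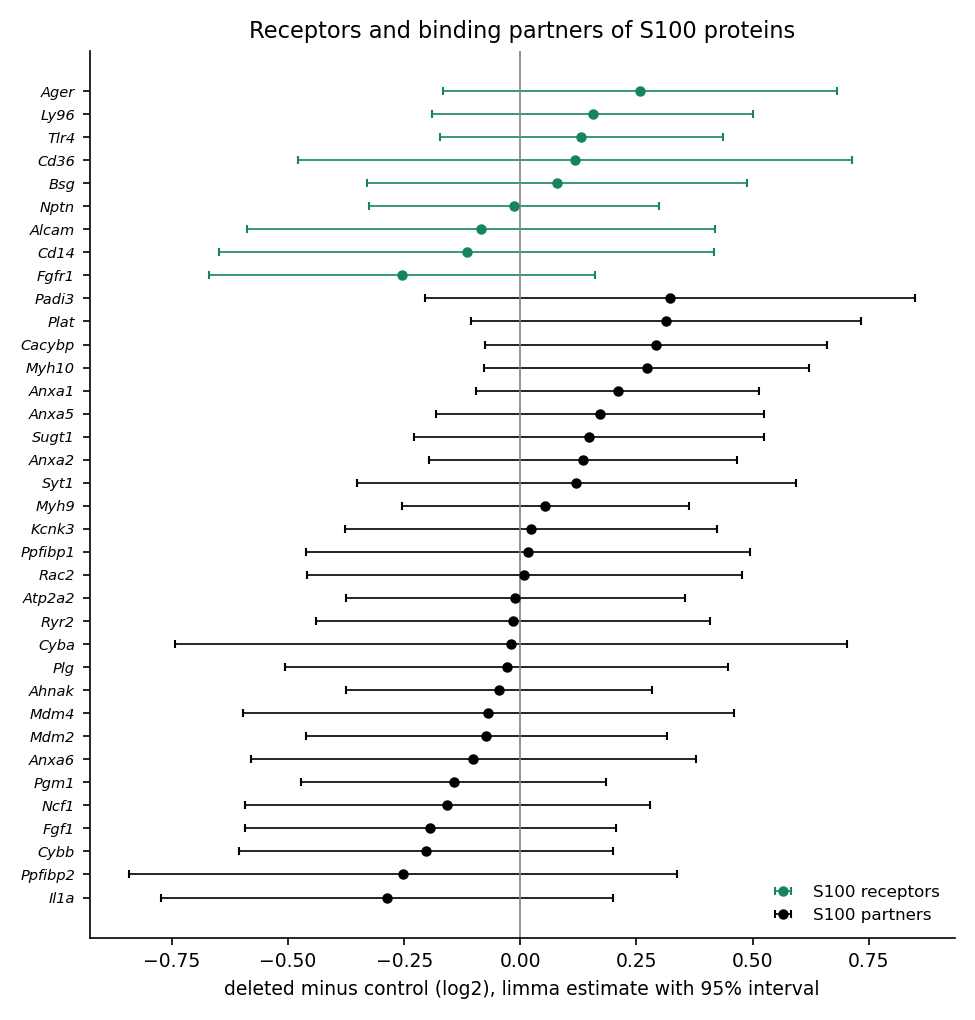
Differences, deleted minus control (log2), with 95% intervals for 9 receptors (green) and 27 partners (black) of S100 proteins. Every interval covers 0.

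The position of S100a3 within the cluster was set beside its difference. In GRCm38.p6 it spans chr3:90560356-90602706 on the plus strand and S100a4 chr3:90603770-90606045 on the same strand. Within 500 kb of the start of S100a3, RefSeq places 42 genes, of which 27 were measured. Apart from S100a3, 14 of the 26 were lower and 12 higher in deleted arrays, with a median difference of -0.05. They lay between -0.48 (S100a5) and 0.78 (S100a9), and 1 of the 26, Snapin at 0.16, had no overlap, a share no higher than the 6.07% of all genes. The measured neighbours of S100a3 were S100a16 before it, at 0.16, and S100a4 after it, at -0.24.

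**Figure D5:**
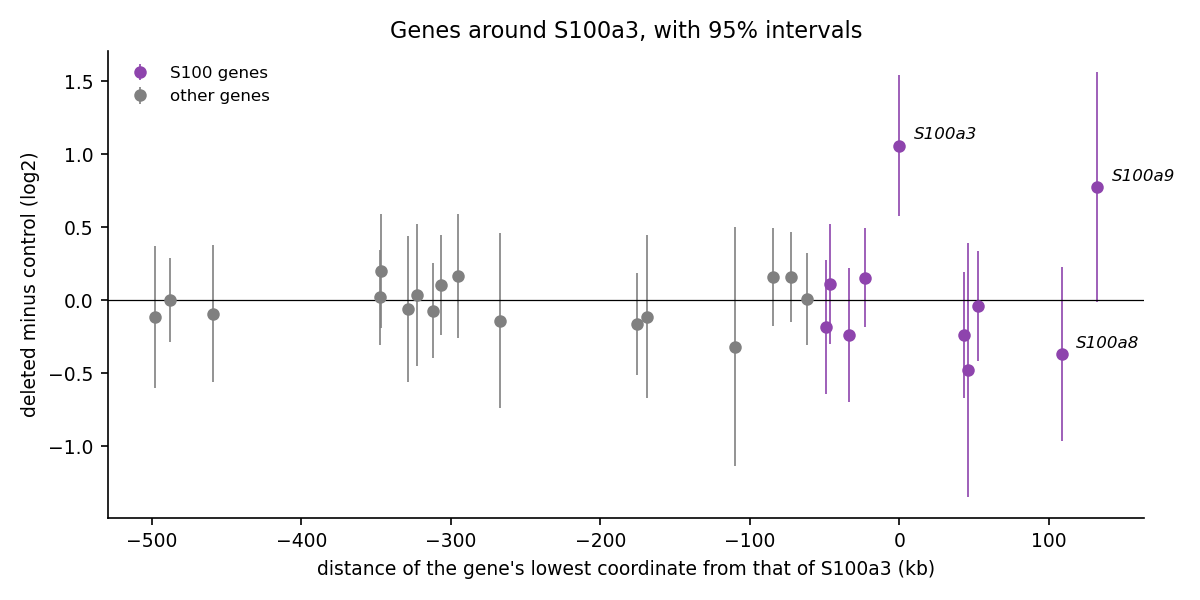
Difference of each measured gene within 500 kb of S100a3, deleted minus control (log2), with 95% intervals, against the distance in kb between the lowest coordinates of the gene and of S100a3. S100a3 and S100a9 stand above the rest, and the S100 genes between them, S100a8 included, lie below 0.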

How the data were processed

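Mammary tissue was digested with collagenase, cells were sorted on CD31 into Trizol, and total RNA was amplified, biotinylated and hybridized to Affymetrix mouse expression arrays. The authors deposited 1 table of log2 signals from Robust Multichip Average (RMA) processing: background correction, quantile normalization and a summary per probe set. This compresses differences at low signal, and levels of different probe sets do not order abundance. The version of RMA is not given in the sources used.

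Of 45101 probe sets, 64 array controls were left out and 45037 tested. The annotation gave 34945 of them 1 gene, 932 several and 9160 none, and 34741 were matched to RefSeq by gene number. A gene was represented by its brightest probe set on average over the 6 arrays. limma 3.58.1 in R 4.3.3 (lmFit, eBayes, two-sided, no covariates) compared 3 deleted with 3 control arrays, with Benjamini-Hochberg adjustment over all tested probe sets at 0.05. The limma step was tested on simulated data. Replicates are animals, whose number limits the precision.

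The members and lists were chosen with earlier results of these data known. Values were given for every member, for the 3 largest differences of each S100 list and for the 3 nearest profiles. Genes within 500 kb of S100a3 were counted, with values for the measured genes next to it and for the ends of the range. Some genes were chosen after their values were seen (Ets2, Mmp9, Tlr4, Anxa1, Anxa2, Myh10, Snapin and the neutrophil genes). Alternatives were median centring, further quantile normalization, other choices of probe set, a filter on dim probe sets, other variance models, array weights, the animal number as a block and each array left out.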

Additional observations from a re-analysis of the deposited data

How the results depend on the processing

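No member passed the adjusted p of 0.05 with limma under any alternative tried. As single arrays were left out, S100a6 ran from -0.12 to 0.07 and S100a13 from -0.01 to 0.22, and the sign of the other 7 members did not change. With array weights S100a13 was at -0.034. S100a10 was at 0.02 with the mean over its probe sets. The count of members with an unadjusted p under 0.05, 1, was 2 with further quantile normalization, with the mean over probe sets and with either block, 3 with array weights, 0 with only probe sets above the median signal, and 1 to 2 as arrays were left out. The median difference of the members, 0.11, became -0.034 with array weights and ran from -0.0099 without the second deleted array to 0.18 without the second control array as single arrays were left out. The count of members lower in deleted arrays, 4, stayed between 3 and 5 when arrays were left out. The count past the thresholds of the study, 1, was 0 with only probe sets above the median signal, which leaves S100a3 out, 0 with array weights, where S100a3 was at 0.999, and 0 to 2 as arrays were left out (0 without the first deleted or the first control array, 2 without the third control array). The count without overlap, 1, became 2 with arrays centred on their median, 2 with the mean over all probe sets of a gene, 0 with only probe sets above the median signal, and 2 to 3 as arrays were left out. Groups separate more easily with fewer arrays. The shares of all genes without overlap or with an unadjusted p under 0.05 were not counted under these alternatives. The moves of these member counts are therefore no result about the members.

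The animal identifiers share 2 numbers between the groups, but no label says that these mark a litter, and the deviations of the same-numbered arrays correlated at 0.17 and -0.02. The third array of each group has a number of its own. With the number as a fixed replicate block, the differences therefore rest on the first 2 arrays of each group. In that fit 2 members (S100a3 and S100a9) passed the thresholds of the study, and 317 probe sets did against 58 without the block.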
